A study of Mus musculus with 24 samples.

Results

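Foxd3, Sox10, Tfap2a, Tfap2b, Ets1, Pax3, Pax7, Msx1, Msx2 and Zic1 are transcription factors of the neural crest and the dorsal neural tube. They were chosen as a named list, and all 10 were found among the 22889 entries of the deposited RPKM table (reads scaled by transcript length and by the mapped reads of the library). Their levels were followed across 4 sorted groups of 6 libraries each, from motor neuron cultures made from mouse embryonic stem cells (mESCs). The oculomotor neuron (OMN) cultures came from an Islet1-GFP line that carries Phox2a under the nestin enhancer, which acts in neural progenitors, and were patterned as embryoid bodies for 5 days with the smoothened agonist SAG at 250 nM and FGF8 at 100 ng/ml. The spinal cultures came from an Hb9-GFP line and were patterned for 5 days with SAG at 500 nM and retinoic acid at 100 nM. GFP-positive and GFP-negative cells were collected by FACS from each. The cell line, the reporter gene and the patterning factors changed together between the cultures, so their parts in a difference between cultures cannot be told apart.

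The neural crest arises where the dorsal neural tube meets the surface ectoderm. BMP and Wnt signals there induce border genes such as Msx1, Msx2, Pax3, Pax7 and Zic1, and these are followed by crest specifiers such as Foxd3, Tfap2a, Ets1 and Sox10. Motor neurons form at the opposite, ventral side under Sonic hedgehog, whose pathway SAG switches on, and hedgehog signalling keeps Pax3, Pax7 and the Msx genes out of the ventral tube. Several of these factors also act elsewhere, Foxd3 in pluripotent stem cells and Ets1 in endothelial and lymphoid cells.

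The sequences just upstream of the transcription start are shown for Foxd3 and Msx1, since both had fewer reads in the GFP-positive library of every oculomotor pair (given further on). Msx2 did too, and its window, with 16 CpGs, is not printed here. RefSeq sequences on GRCm38.p6 were matched for 7 of the 10 genes. Each window covers the 250 bases before the annotated start, is written 5′ to 3′ along the gene, and has every CpG in capitals. Foxd3 lies on the plus strand at chr4:99656049-99656298 and Msx1 on the minus strand at chr5:37824586-37824835.
Foxd3: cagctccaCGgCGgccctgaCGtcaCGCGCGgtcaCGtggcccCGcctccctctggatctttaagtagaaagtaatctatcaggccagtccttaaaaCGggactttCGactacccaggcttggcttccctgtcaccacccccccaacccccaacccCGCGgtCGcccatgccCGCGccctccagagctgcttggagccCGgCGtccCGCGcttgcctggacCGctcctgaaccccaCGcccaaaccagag
Msx1: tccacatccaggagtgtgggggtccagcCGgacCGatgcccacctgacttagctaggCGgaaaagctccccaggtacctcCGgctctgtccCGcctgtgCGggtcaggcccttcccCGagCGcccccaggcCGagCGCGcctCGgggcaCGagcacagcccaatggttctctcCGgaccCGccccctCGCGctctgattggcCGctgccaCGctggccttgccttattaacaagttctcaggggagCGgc
The Foxd3 window held 21 CpGs and the Msx1 window 20, against a median of 6 over 32851 promoter windows of that length. At least 21 CpGs were present in 16.3% of all windows and at least 20 in 17.9%. The Zic1 window held 27 CpGs, the Msx2 window 16, the Pax7 window 13, both Tfap2a windows 10 and the Tfap2b window 5. CpG content is a property of the sequence and was not measured for methylation here.

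The libraries held between 752637 and 7674685 mapped reads, as recovered from the spacing of the RPKM values, and replicates 5 and 6 were deeper in every group (4821703 to 7674685) than replicates 1 to 4 (752637 to 4646096). The motor neuron genes followed the labels in the means: Isl1, a LIM factor of motor neurons, stood at 249 ± 77.8 RPKM in oculomotor GFP-positive and 1.20 ± 0.405 in GFP-negative libraries (SD, n = 6), and Mnx1 (Hb9) at 97.7 ± 44.0 in spinal GFP-positive and 2.52 ± 2.54 in oculomotor GFP-positive libraries. Phox2a, the gene that the transgene carries, was at 25.7 ± 18 RPKM in oculomotor and 1.78 ± 3.38 in spinal GFP-positive libraries. A pair of spinal replicates stood apart. In spinal GFP-negative replicate 2 the entries Gm10800, Gm10801 and Gm21738 made up 68.8% of all RPKM, and 17.8% in its GFP-positive partner. Spinal GFP-negative replicate 4 held Mnx1 at 69.4 RPKM, while the other 5 libraries of its group lay between 0.189 and 4.72. Its GFP-positive partner held Mnx1 at 43.1 RPKM, so in this pair the reporter's gene was higher in the GFP-negative library. The pair is counted below as labelled. For the 10 genes, the printed differences that moved by over 1.5 times without these 2 replicates are given both ways.

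All 10 genes were rare. No gene reached a mean of 1 RPKM over the 24 libraries. The order by mean level per length was Ets1 at 0.683 RPKM, Foxd3 at 0.560, Msx2 at 0.441, Msx1 at 0.332, Zic1 at 0.118, Sox10 at 0.0849, Tfap2a at 0.0771, Tfap2b at 0.0473, Pax7 at 0.0423 and Pax3 at 0.0403. Neighbours in this order overlapped across libraries. Ets1 stood at the 43.7th percentile of all entries by mean RPKM and Pax3 at the 14th. The reads behind these values were recovered from the same spacing, with a length fitted to each gene so that its low values came out whole. Every value of the 10 genes was then a whole number of reads within a tolerance of 2%, which is no separate check. The fitted length could exceed the longest annotated transcript, at 8475 against 5080 bases for Ets1 and 3097 against 1935 for Msx1. Reads of such genes are less certain. Over all libraries Ets1 had 633 reads, Msx2 161, Foxd3 114, Msx1 85, Zic1 65, Tfap2a 22, Pax7 21, Tfap2b 20, Pax3 19 and Sox10 10. Depending on the library, a single read was worth between 0.0154 and 0.157 RPKM for Ets1, which had the longest fitted length. It was worth between 0.0560 and 0.571 RPKM for Foxd3, which had the shortest. Many values below therefore stand for 1 to 5 reads, and counting error alone is large.

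Fewest of the genes were detected in oculomotor GFP-positive cells. Between 0 and 3 of the 10 had a read in a library of that group, with a median of 2, against 4 to 8 with a median of 7 in oculomotor GFP-negative libraries. These ranges did not overlap. The spinal groups did, with 2 to 6 genes and a median of 4 in GFP-positive and 4 to 9 with a median of 5.5 in GFP-negative libraries. No such count is given for other entries of like low level. Whether the pattern is particular to these 10 genes is therefore not known. Depth was alike in both oculomotor fractions, from 1414431 to 6901420 reads in GFP-positive and from 1348411 to 6201723 in GFP-negative libraries. The oculomotor GFP-positive library without a read of any of the 10 genes, replicate 4, was the shallowest of its group at 1414431 reads. Sox10, Tfap2a, Pax3 and Pax7 had no read in any of the 6 oculomotor GFP-positive libraries, which allows up to 3 reads over the group, or 0.0432 RPKM for Sox10, 0.0361 for Tfap2a, 0.0189 for Pax3 and 0.020 for Pax7. In bulk libraries fewer cells of a type and less RNA per cell cannot be told apart.

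**Figure D1:**
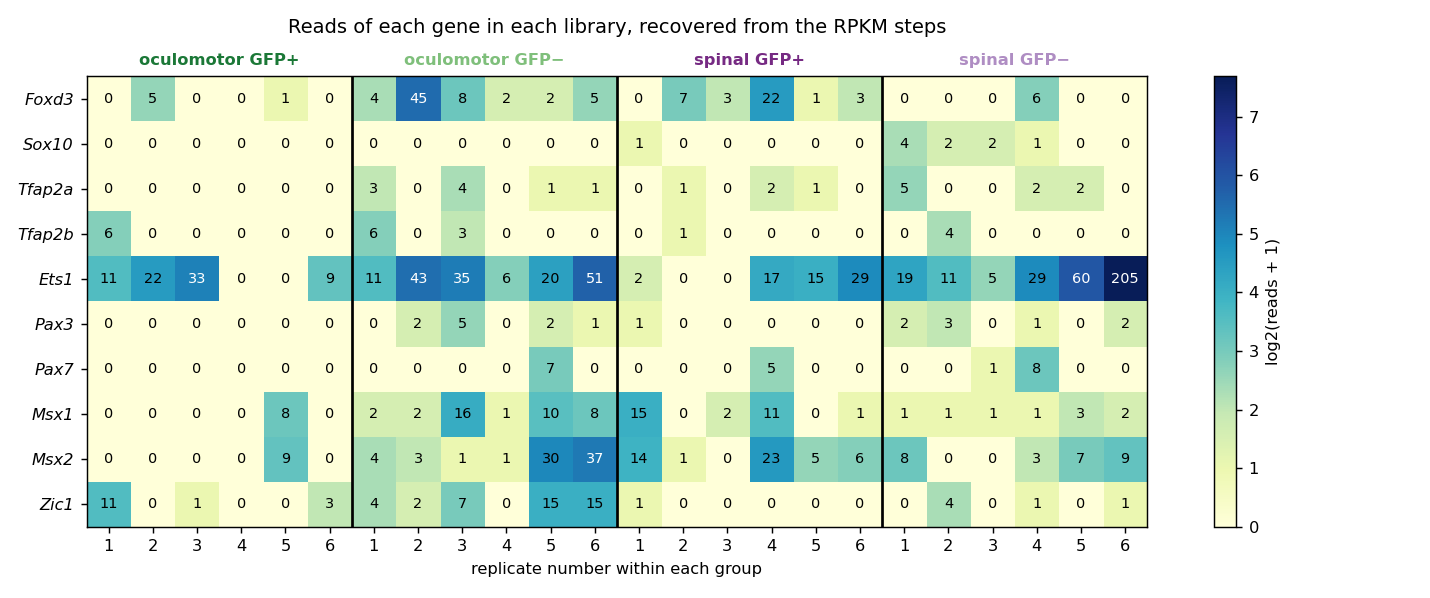
Reads of the 10 genes (rows) in the 24 libraries (columns, by group and replicate number), recovered from the spacing of the RPKM values and coloured by log2(reads + 1). Ets1 reached 205 reads in spinal GFP-negative replicate 6, while Sox10 stayed at 4 or fewer in every library and at 0 in all 12 oculomotor libraries.

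The comparisons asked whether the 10 genes differed between the oculomotor and spinal cultures within each GFP fraction, between the fractions within each culture, and whether the fraction difference differed between the cultures. limma was fitted to log2(RPKM + 1) over all entries with a value above 0 in at least 2 samples, with Benjamini-Hochberg adjustment. On this scale differences of such low genes are small and understate the ratio. None of the genes was called at an adjusted p of 0.05 in any of the 5 comparisons. For oculomotor against spinal GFP-positive cells 0 of 7 tested genes were called, where 0.603% of all tested entries were, and 0 were at an unadjusted p under 0.05. Sox10, Pax3 and Pax7 were not tested there because each was above 0 in fewer than 2 of the 12 libraries. For the GFP-negative cells it was 0 of 10 against a background of 0.96%, with 3 at an unadjusted p under 0.05 (Sox10, Foxd3 and Zic1). Between the fractions of the oculomotor cultures it was 0 of 10 against 6.15%, with 4 at the unadjusted level (Foxd3, Msx2, Msx1 and Zic1). Between the fractions of the spinal cultures it was 0 of 10 against 1.23%, with 2 unadjusted (Ets1 and Sox10). For the difference between the cultures in the fraction effect it was 0 of 10 against 0.32%, with 4 unadjusted (Foxd3, Msx1, Msx2 and Sox10). The median difference of the 10 between oculomotor fractions was -0.20 (log2), beside 0.00 over all tested entries, and between spinal fractions -0.07 beside 0.00.

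Libraries of 1 culture with the same replicate number deviated together, as did some with different numbers (the check is given with the methods). The fraction comparisons were therefore also fitted with the replicate number as a block. This changed the call for 2 of the 10 genes. Foxd3 was lower in oculomotor GFP-positive cells (1 gene, against 16.4% of all entries in that fit), and Ets1 was lower in spinal GFP-positive cells (1 gene, against 2.93%). Foxd3 was also called for the difference between the cultures (1 gene, against 2.04%). The labels do not say whether the replicates of a group came from separate cultures, and p-values then measure the spread between these libraries, which may in part be technical.

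**Figure D2:**
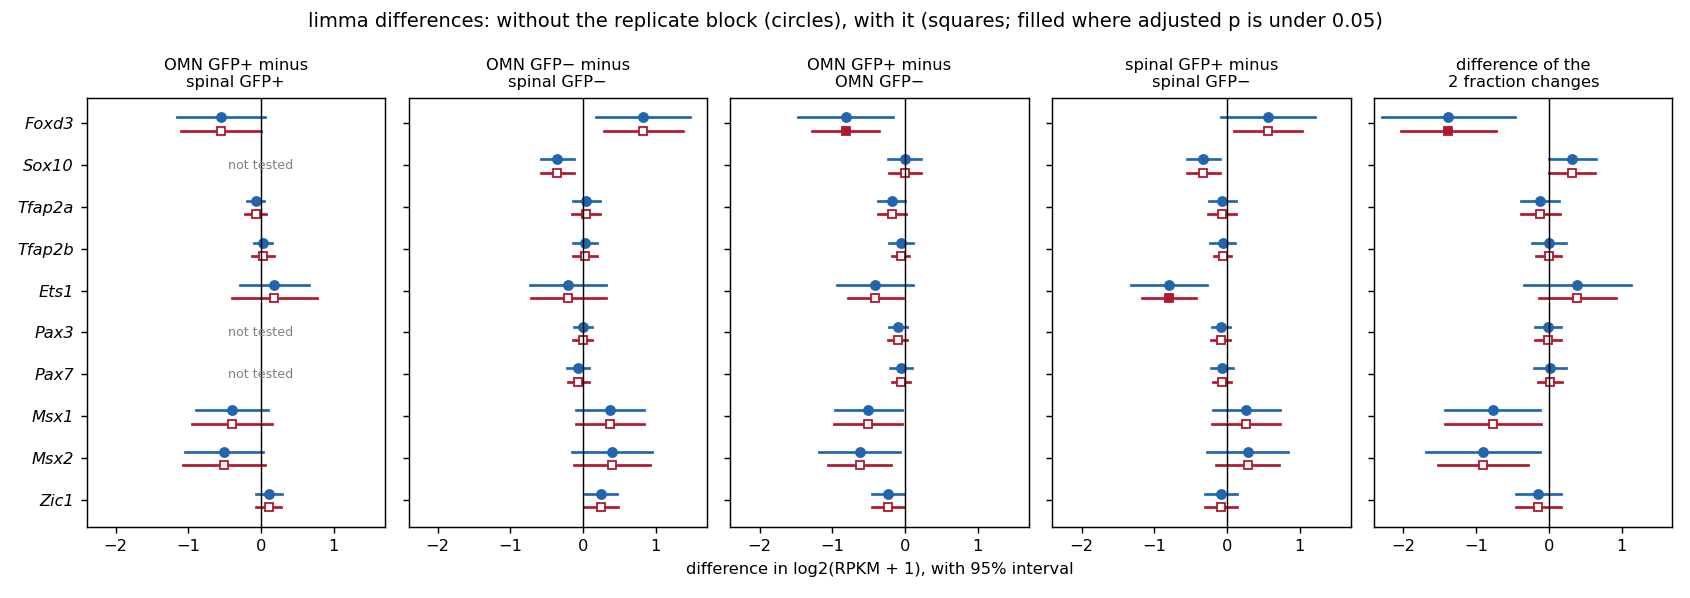
Differences in log2(RPKM + 1) with 95% intervals for the 10 genes in the 5 comparisons, from limma without the replicate block (blue circles) and with it (red squares, filled where the adjusted p is under 0.05). Filled squares appear for Foxd3 in the oculomotor fractions and in the difference between the cultures, and for Ets1 in the spinal fractions.

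Foxd3, a forkhead factor that specifies the crest, had reads in every oculomotor GFP-negative library. Its RPKM in replicates 1 to 6 was 0.593, 4.54, 1.20, 0.638, 0.178 and 0.347 there, or 66 reads in all, of which 45 came from replicate 2. In oculomotor GFP-positive cells it was 0, 0.584, 0, 0, 0.0674 and 0, or 6 reads. In spinal GFP-positive cells it was 0, 1.30, 0.746, 2.42, 0.0595 and 0.168, or 36 reads, and in spinal GFP-negative cells it was 0 in 5 libraries and 0.607 in replicate 4, or 6 reads. The mean was 1.25 ± 1.65 RPKM in oculomotor GFP-negative and 0.782 ± 0.945 in spinal GFP-positive libraries (SD, n = 6). This order turned when only oculomotor replicate 2 was left out, at 0.592 ± 0.389 (n = 5). It held when spinal replicate 4, the highest of its group, was left out as well, at 0.454 ± 0.556 in spinal GFP-positive libraries (n = 5). Foxd3 was lower in the GFP-positive library in 6 of 6 oculomotor pairs and higher in it in 5 of 6 spinal pairs, with replicate 1 at 0 in both. Being lower in all 6 oculomotor pairs was shared by 11.2% of tested entries. The ranges of the fractions overlapped in both cultures.

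For the oculomotor fractions the Foxd3 difference was -0.82 ± 0.31 (log2 difference ± SE, adjusted p = 0.142), and with the replicate block -0.82 ± 0.21 (adjusted p = 0.0193). The adjusted p ranged from 0.0119 to 0.331 over 42 alternative fits. In the blocked fit the call was lost without oculomotor replicate 2 (-0.62 ± 0.20, adjusted p = 0.0595) or without replicate 3 (adjusted p = 0.0602), and stood without each of the other 4. With sample quality weights Foxd3 and Ets1 were both called lower in oculomotor GFP-positive cells (2 genes, against 17.1%), at adjusted p = 0.0256 for Foxd3 and 0.0336 for Ets1. For the spinal fractions the Foxd3 difference was 0.57 ± 0.31 (adjusted p = 0.561, and 0.188 with the block), and without spinal replicates 2 and 4 it was 0.28 ± 0.33 (adjusted p = 0.870) or, with the block, 0.28 ± 0.23 (adjusted p = 0.567). The difference between the cultures was -1.38 ± 0.44 (adjusted p = 0.291) and with the block -1.38 ± 0.30 (adjusted p = 0.0354). That call stood in 4 of 12 blocked fits that each left out 1 pair (oculomotor replicate 5 or spinal replicate 1, 5 or 6), with adjusted p from 0.0335 to 0.0783, and it was lost without spinal replicates 2 and 4 (-1.09 ± 0.30, adjusted p = 0.0877). Between the GFP-negative groups Foxd3 differed by 0.83 ± 0.31, higher in oculomotor (adjusted p = 0.278, range 0.0988 to 0.520 over 35 alternatives), and between the GFP-positive groups by -0.55 ± 0.28 (adjusted p = 0.542), or by -0.15 ± 0.18 without spinal replicates 2 and 4 (adjusted p = 0.877).

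Genes of pluripotent stem cells moved in the same direction as Foxd3 between the oculomotor fractions. Of the 7 listed (Pou5f1, Nanog, Zfp42, Esrrb, Dppa5a, Tdgf1 and Fgf4), 6 were called lower in oculomotor GFP-positive than GFP-negative cells, against 6.15% of all tested entries called. Between the spinal fractions 1.23% of entries were called, and none of the 7 was. Their summed level lay between 695 and 9879 RPKM in oculomotor GFP-negative, 0.315 and 259 in oculomotor GFP-positive, 14.4 and 12405 in spinal GFP-positive and 74.4 and 5801 RPKM in spinal GFP-negative libraries, and none of the 7 was at 0 in a whole group. Dppa5a carried most of these sums, and without it they were 73.3 to 433, 0.315 to 12.9, 0.448 to 303 and 1.41 to 367 RPKM in the same order. Nanog, a core pluripotency factor, was at 185 RPKM in spinal GFP-negative replicate 4, the only library of its group with Foxd3 reads, and at 9.48 RPKM or lower in the other 5. It was at 156 RPKM in spinal GFP-positive replicate 4, where Foxd3 was highest for that group. Spinal GFP-positive replicate 3 held Foxd3 at 0.746 RPKM with Nanog at 0, while replicate 5 of that group had Nanog at 40.5 RPKM with 1 read of Foxd3. Oculomotor GFP-negative replicate 1 had the highest sum without Dppa5a, 433 RPKM, with Foxd3 at 0.593, and replicate 2 had 203 RPKM with Foxd3 at 4.54. The part of pluripotent cells in the Foxd3 differences was not tested.

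**Figure D3:**
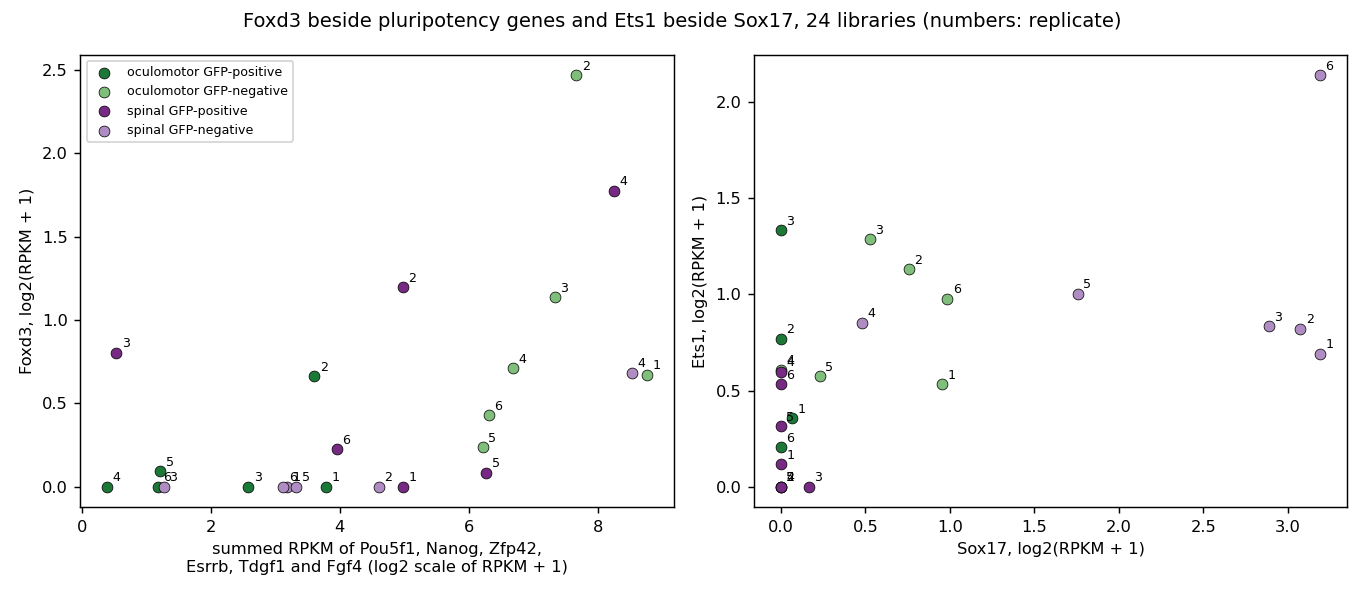
Left, Foxd3 against the summed RPKM of 6 pluripotency genes (Dppa5a left out for its high level), and right, Ets1 against Sox17, all as log2(RPKM + 1), with 1 point for each of the 24 libraries, coloured by group and numbered by replicate. In spinal GFP-negative cells Foxd3 was above 0 only in replicate 4, which lies far to the right of its group, and the other 5 libraries of that group lie at 0 on the Foxd3 axis.

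Ets1, an ETS factor of cranial crest cells, had the most reads of the list. Its mean was higher in the GFP-negative than the GFP-positive libraries of both cultures. In spinal GFP-negative libraries its RPKM in replicates 1 to 6 was 0.614, 0.766, 0.784, 0.805, 1.00 and 3.41, or 329 reads, of which 205 came from replicate 6. In spinal GFP-positive libraries it was 0.0842, 0, 0, 0.513, 0.245 and 0.446, or 63 reads. These 2 groups did not overlap, which held for 0.397% of tested entries in the same direction, and no other gene of the 10 separated any pair of groups compared. The GFP-positive library was lower in 6 of 6 spinal pairs, as for 2.6% of tested entries. In oculomotor GFP-negative libraries Ets1 was at 0.447, 1.19, 1.44, 0.525, 0.489 and 0.97 RPKM and in GFP-positive libraries at 0.280, 0.705, 1.52, 0, 0 and 0.154. There the fractions overlapped, and the GFP-positive library was lower in 5 of 6 pairs, all but replicate 3.

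Between the spinal fractions Ets1 differed by -0.80 ± 0.25 (log2 difference ± SE, adjusted p = 0.150), and with the replicate block by -0.80 ± 0.17 (adjusted p = 0.0291). Over 42 alternatives the adjusted p ranged from 0.0124 to 0.627. Leaving out 1 spinal pair at a time in the blocked fit kept the call in 1 of 6 fits, that without replicate 4 (adjusted p = 0.0124), and the highest adjusted p was 0.0879, without replicate 3. Without replicates 1, 2, 5 and 6 it was 0.0673, 0.0585, 0.0541 and 0.0732. Without both replicates 2 and 4 the blocked difference was -0.93 ± 0.20 (adjusted p = 0.0227), where 1 of the 10 genes, Ets1, was called in the spinal fractions against 6.49% of entries and 2, Foxd3 and Msx2, in the oculomotor fractions against 20.8%. For the oculomotor fractions the Ets1 difference was -0.41 ± 0.25 (adjusted p = 0.449, and 0.138 with the block). The difference between the cultures was 0.39 ± 0.36 (adjusted p = 0.851), and the interval reached from -0.35 to 1.12.

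Sox17, an endoderm and endothelial factor, moved in the same direction as Ets1 in the spinal cultures. It was at 5.48 ± 3.29 RPKM in spinal GFP-negative and 0.0202 ± 0.0494 in spinal GFP-positive libraries (SD, n = 6, adjusted p = 0.0004). Sox17 was the only one of 8 listed endothelial and blood genes called there, where 1.23% of all tested entries were. The list as a whole did not follow it, with a median difference of 0.001 (log2) between the spinal fractions. The summed level of that list was 4.72 to 17.4 RPKM in spinal GFP-negative, 0.346 to 12.7 in spinal GFP-positive, 0.119 to 3.11 in oculomotor GFP-negative and 0.0481 to 0.180 in oculomotor GFP-positive libraries. Cdh5, the endothelial cadherin, and Ptprc (CD45) of blood cells were at 0 in both oculomotor groups and Tal1 and Gata1 in the GFP-positive group alone, and none was at 0 throughout a spinal group. In spinal GFP-negative replicate 4 Sox17 was at 0.394 RPKM while Ets1 was at 0.805. The part of endothelial, blood or endodermal cells in the Ets1 difference was not tested.

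Sox10, which maintains crest cells and drives their glial fate, was read in spinal cultures only. All 12 oculomotor libraries were at 0, which allows 3 reads over their 47995045 reads, or 0.0230 RPKM. In spinal GFP-negative libraries its RPKM was 0.404, 0.435, 0.980, 0.0867, 0 and 0, or 9 reads, and in spinal GFP-positive libraries 0.132 in replicate 1 and 0 in the other 5, or 1 read. Reads were thus found in replicates 1 to 4 and in neither of the deeper replicates 5 and 6. The difference between the GFP-negative groups was -0.35 ± 0.11 (log2, adjusted p = 0.150, range 0.0561 to 0.401 over 34 alternatives). Between the spinal fractions it was -0.32 ± 0.11 (adjusted p = 0.204). Of 7 oligodendrocyte-lineage genes, a list that also holds Sox10, the summed level was 8.61 to 88.3 RPKM in spinal GFP-negative, 3.97 to 54.9 in spinal GFP-positive, 2.25 to 13.7 in oculomotor GFP-negative and 2.5 to 9.20 RPKM in oculomotor GFP-positive libraries. The most abundant of the list was Olig1, at a mean of 13.9 RPKM over the 24 libraries, followed by Mbp at 2.72. The paper uses Olig1 as a marker of spinal motor neurons. The part of the oligodendrocyte lineage in the Sox10 values was not tested.

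Tfap2a and Tfap2b encode AP-2 factors that act at the neural plate border and in the crest. Tfap2a had 9 reads in oculomotor GFP-negative libraries (4 of 6 libraries, up to 0.431 RPKM), 9 in spinal GFP-negative (3 of 6, up to 0.422), 4 in spinal GFP-positive (3 of 6, up to 0.158) and 0 in oculomotor GFP-positive libraries. Tfap2b had 9, 4, 1 and 6 reads in the same order, and its 6 oculomotor GFP-positive reads all came from replicate 1 at 0.204 RPKM. No fit called either gene. The Tfap2a difference between the oculomotor fractions was -0.18 ± 0.09 (adjusted p = 0.301), and the intervals for Tfap2b lay within -0.23 and 0.23 in the 5 comparisons. An antisense gene, Gm26688, overlaps Tfap2a over 7355 bases, and the libraries do not keep strand.

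**Figure D4:**
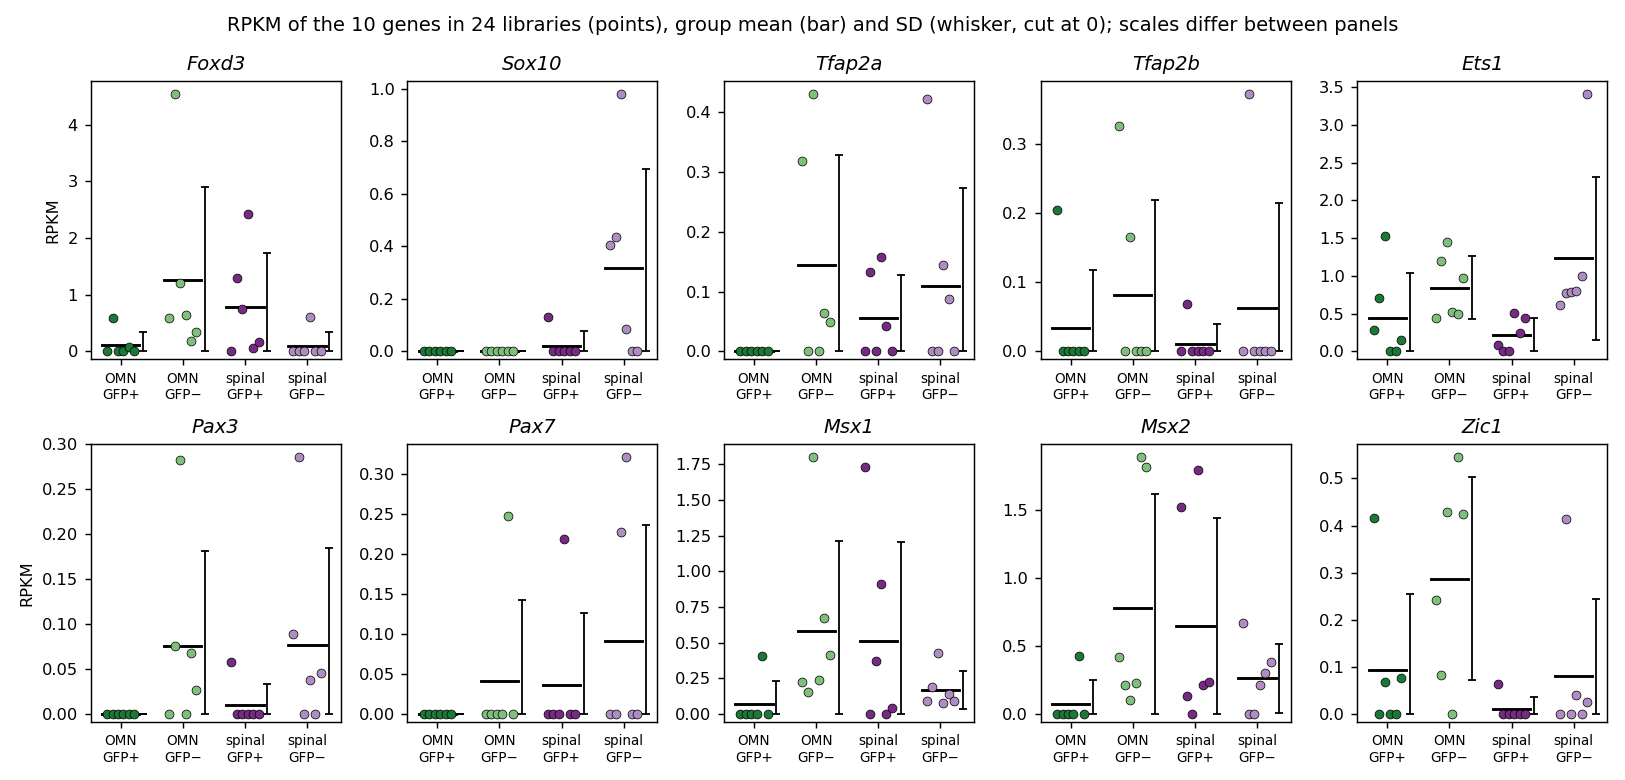
RPKM of each of the 10 genes in the 6 libraries of each group (points), with the group mean (bar) and SD (whisker, cut at 0), on a scale of its own for each gene. Most panels have several libraries at 0 and 1 or 2 higher ones, and the spinal Ets1 fractions are the ones whose points do not overlap.

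Msx1 and Msx2 are homeobox targets of BMP signalling in the dorsal midline and the border. In oculomotor GFP-negative libraries Msx1 was at 0.222, 0.151, 1.80, 0.239, 0.670 and 0.416 RPKM, and Msx2 at 0.420, 0.215, 0.106, 0.226, 1.90 and 1.82. In oculomotor GFP-positive libraries both were at 0 in 5 of 6, and in replicate 5 Msx1 was at 0.404 and Msx2 at 0.430. So each had reads in every GFP-negative library and in 1 GFP-positive library, the same for both genes. Both were lower in the GFP-positive library in 6 of 6 pairs, yet the ranges overlapped because of replicate 5. The oculomotor fractions differed by -0.51 ± 0.22 for Msx1 (log2, adjusted p = 0.215, and 0.138 with the block). For Msx2 they differed by -0.62 ± 0.27 (adjusted p = 0.201, and 0.0515 with the block, range 0.0301 to 0.732 over 42 alternatives).

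The spinal cultures showed no such order for the Msx genes. In spinal GFP-positive libraries Msx1 was at 1.73, 0, 0.373, 0.909, 0 and 0.0421 RPKM and Msx2 at 1.52, 0.131, 0, 1.80, 0.211 and 0.238. Replicates 1 and 4 were the highest of that group for both genes. In spinal GFP-negative libraries Msx1 had 1 to 3 reads in each of the 6, from 0.0760 to 0.429 RPKM, and Msx2 ranged from 0 to 0.669 RPKM. The fraction difference was 0.27 ± 0.22 for Msx1 (adjusted p = 0.767) and 0.28 ± 0.27 for Msx2 (adjusted p = 0.800). Without spinal replicates 2 and 4 the Msx2 value was 0.08 ± 0.32 (adjusted p = 0.996). The difference between the cultures was -0.77 ± 0.32 for Msx1 (adjusted p = 0.541) and -0.91 ± 0.38 for Msx2 (adjusted p = 0.565). Between the GFP-positive groups Msx1 differed by -0.40 ± 0.23 (adjusted p = 0.604) and Msx2 by -0.51 ± 0.25 (adjusted p = 0.526), with the lower mean in oculomotor cells.

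**Figure D5:**
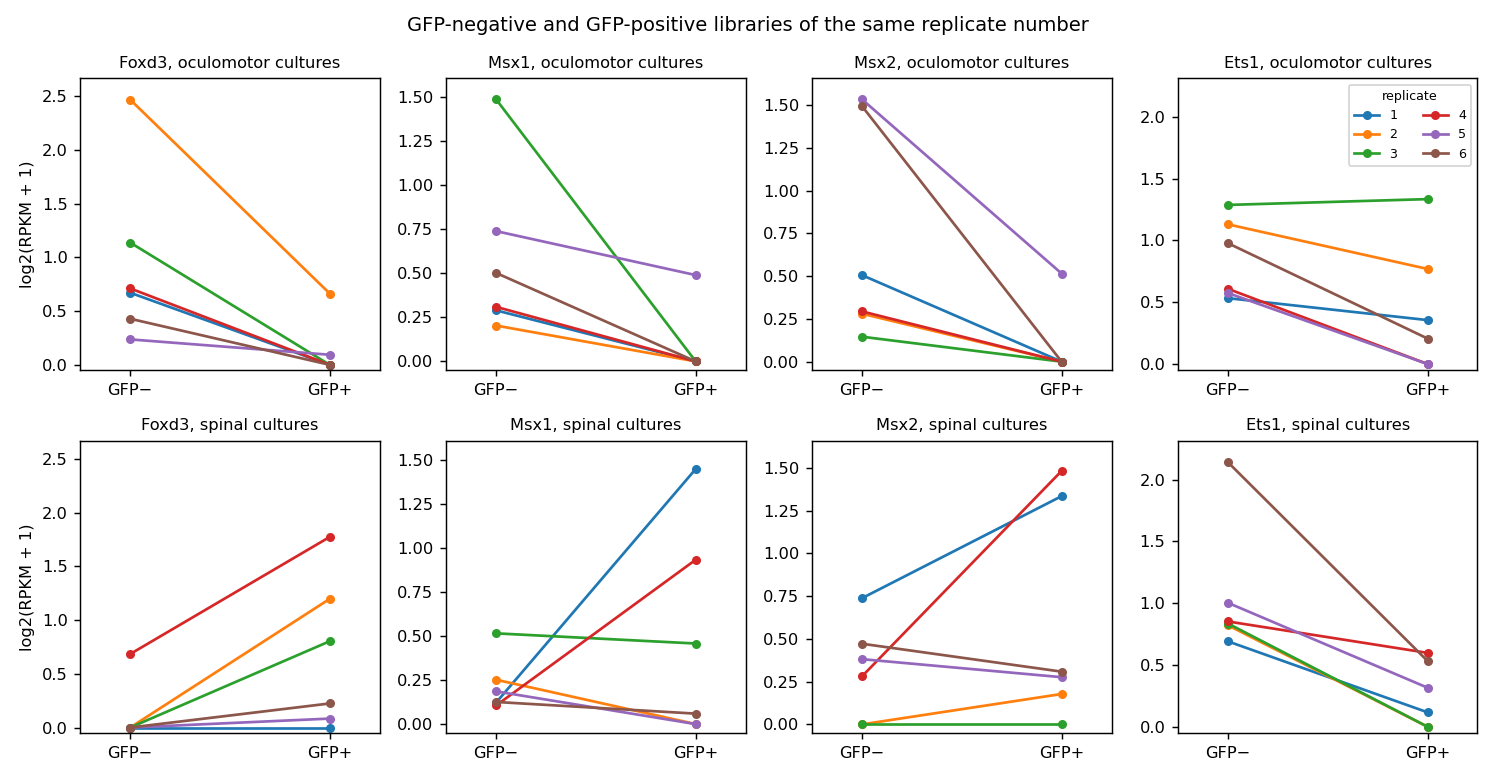
Log2(RPKM + 1) of Foxd3, Msx1, Msx2 and Ets1 in the GFP-negative and GFP-positive libraries that share a replicate number (joined points), oculomotor cultures above and spinal cultures below. Foxd3, Msx1 and Msx2 were lower in GFP-positive cells in 6 of 6 oculomotor pairs, and Ets1 in 6 of 6 spinal pairs.

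Zic1, a zinc finger gene of the dorsal tube and the border, was found mainly in the oculomotor cultures, with 15 reads in GFP-positive and 43 in GFP-negative libraries against 1 and 6 in the spinal ones. In oculomotor GFP-negative libraries it was at 0.242, 0.0824, 0.429, 0, 0.546 and 0.425 RPKM. In oculomotor GFP-positive libraries it was at 0.416, 0, 0.0687, 0, 0 and 0.0763. In spinal GFP-negative libraries the highest value, 0.415 RPKM, stood for 4 reads of replicate 2, and the other 5 lay at or below 0.0413. The GFP-negative groups differed by 0.25 ± 0.11 (log2, higher in oculomotor, adjusted p = 0.370) and the oculomotor fractions by -0.23 ± 0.11 (adjusted p = 0.248). In the deeper replicates 5 and 6 alone Zic1 was called in the first of these (0.55 ± 0.09, adjusted p = 0.0332, 1 of 7 tested against 1.6% of entries). There Zic1 and Msx2 were also called between the oculomotor fractions (adjusted p = 0.0250 and 0.0301, 2 genes against 4.74%), while in replicates 1 to 4 none was. Over all alternatives the adjusted p of Zic1 ranged from 0.0332 to 0.899 and from 0.0250 to 0.919. Zic4 lies on the opposite strand and shares 3398 bases with Zic1, so reads there cannot be assigned by strand.

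Pax3 and Pax7 are paired-box factors of the dorsal neural tube, the crest and muscle precursors. Pax3 had 10 reads in oculomotor GFP-negative libraries (4 of 6, up to 0.282 RPKM), 8 in spinal GFP-negative (4 of 6, up to 0.286), 1 in spinal GFP-positive and 0 in oculomotor GFP-positive libraries. Pax7 had reads in 4 of the 24 libraries. These were oculomotor GFP-negative replicate 5 with 7, spinal GFP-positive replicate 4 with 5, and spinal GFP-negative replicates 3 and 4 with 1 and 8. The GFP-positive library was lower in 4 of 6 oculomotor and 4 of 6 spinal pairs for Pax3, with the others tied at 0. The differences between fractions were -0.10 ± 0.06 in oculomotor (adjusted p = 0.430) and -0.09 ± 0.06 in spinal cultures (adjusted p = 0.679) for Pax3. The spinal value was -0.03 ± 0.06 without replicates 2 and 4 (adjusted p = 0.978). For Pax7 they were -0.05 ± 0.07 (adjusted p = 0.852) and -0.07 ± 0.07 (adjusted p = 0.830). Neither gene was called in the comparisons in which it was tested.

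Other genes of the dorsal tube and the crest were taken from 5 further lists with 66 genes in the table. Between the oculomotor fractions 7 were called higher and 5 lower in GFP-positive cells out of 66 tested, where 6.15% of all tested entries were called. The median difference of the 66 was -0.18 (log2) beside 0.00 over all entries. Among 16 further border and dorsal progenitor genes none was higher, and the Zic1 relatives Zic2 and Zic5 were lower. Zic5 fell from 7.91 ± 7.71 RPKM in GFP-negative to 0.142 ± 0.239 in GFP-positive libraries (SD, n = 6, adjusted p = 0.0144) and Zic2 from 1.29 ± 1.26 to 0.0499 ± 0.122 (adjusted p = 0.0369). Zic2 is also expressed in pluripotent cells. Of 8 roof plate genes, Wnt1, a dorsal midline Wnt ligand, was lower in GFP-positive cells (0.0936 ± 0.103 against 1.64 ± 1.90 RPKM, adjusted p = 0.0416). In both spinal fractions Wnt1 had reads in 1 of 12 libraries. None of the genes of these 2 lists was called between the spinal fractions.

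Several genes of the crest and dorsal interneuron lists were higher in the oculomotor GFP-positive cells, where the fewest of the 10 factors were detected. Of 15 glial, melanocyte, sensory and autonomic genes none was lower there than in GFP-negative cells, and Ret and Dbh, both also used by neurons, were higher. Ret, the GDNF receptor, stood at 10.8 ± 7.33 against 0.612 ± 0.579 RPKM (adjusted p = 0.0017), and Dbh, the enzyme that makes noradrenaline, at 1.72 ± 0.943 against 0.0128 ± 0.0314 (adjusted p = 0.0004). The paper describes its oculomotor cultures as devoid of 2 other noradrenergic markers, Slc6a2 and Th. Of 10 dorsal interneuron genes Pou4f1 (Brn3a) was higher, at 11 ± 7.45 against 0.626 ± 0.461 RPKM (adjusted p = 6.4e-05). Of 17 further crest specifier and migration genes Ngfr (p75), Cdh6 and Id2 were higher and Id3 lower. Cdh6, a cadherin of premigratory crest, is also counted by the paper among the axon guidance genes enriched in its oculomotor neurons. It was at 14.6 ± 4.06 RPKM in oculomotor GFP-positive, 2.51 ± 1.26 in oculomotor GFP-negative, 1.54 ± 1.09 in spinal GFP-positive and 4.31 ± 4.05 in spinal GFP-negative libraries. Cdh6 was the only one of the 66 called higher in oculomotor than spinal GFP-positive cells (2.71 ± 0.36, adjusted p = 0.0027), where 0.603% of all tested entries were called. With Dbh it was called for the difference between the cultures (adjusted p = 0.0279 and 0.0370), against 0.32% of entries. Whether the genes of this paragraph stood for crest cells or for neurons was not tested.

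Sox9, a crest and progenitor factor of the same family as Sox10, was higher in the spinal cultures in both fractions. It stood at 32.0 ± 17.3 RPKM in spinal and 5.00 ± 1.52 in oculomotor GFP-positive libraries (adjusted p = 0.0420), and at 51.6 ± 36.3 against 7.55 ± 4.18 in GFP-negative libraries (adjusted p = 0.0328). With the replicate block the first of these was not called (adjusted p = 0.0749) and the second was (adjusted p = 0.0152). Mitf, the melanocyte regulator, was the only one of the 66 called between the spinal fractions, where 1.23% of all tested entries were. It was at 0.184 ± 0.211 RPKM in GFP-positive and 1.11 ± 0.556 in GFP-negative libraries (adjusted p = 0.0404).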

How the data were processed

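RNA from FACS-sorted cells of 24 samples was sequenced by SMART-seq2, a poly(A) protocol that keeps neither strand nor molecular identifiers. The authors mapped the reads and deposited 1 table of RPKM values per gene, and HISAT2 2.0.3 and DESeq2 1.12.4 are named in the submitters' processing notes. The genome annotation behind the table is not given in the sources used here. No sample was left out of the main fits, and groups follow the sample labels.

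Depth was estimated from the spacing of low RPKM values over 5911 single-transcript genes of GENCODE on GRCm38, and in each library between 96.1% and 98.0% of low values were whole reads within 2%. Floors (3 reads) cover counting error only. The intervals of the differences come from the limma fits and rest on the spread between libraries. RPKM was transformed as log2(RPKM + 1) and entries above 0 in at least 2 samples were fitted with limma 3.58.1 (trended empirical Bayes, two-sided, R 4.3.3), with Benjamini-Hochberg adjustment over all entries tested and a threshold of 0.05. The GFP-positive groups were compared in a fit of 12 samples, and the other 4 comparisons came from 1 fit of all 24. The code was tested on simulated data. Python 3.11.15, numpy 2.4.6, pandas 2.3.3 and matplotlib 3.10.9 were also used.

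Samples share replicate numbers. Deviations from the group means over 10676 genes were correlated between the fractions of each culture. For the same number the values were 0.393 to 0.755 in oculomotor and 0.433 to 0.673 in spinal cultures, above 0.1 in 6 of 6 pairs of each. For different numbers they ran from -0.667 to 0.723 and from -0.581 to 0.617, so high values were not limited to the same number. The number was used as a block on this basis, and whether several numbers shared a batch was not tested. Alternatives were a pseudocount of 0.1, other filters, sample quality weights, subsets of replicates, leaving out each library and the replicate block. The blocked fits without 1 replicate number, or without spinal replicates 2 and 4, were added after seeing the data. All 10 genes were named. Of the other lists, genes past the threshold were named (at most 6 per list and comparison), or otherwise the 2 most abundant. Some genes of these lists that passed are not reported here. Genes with a like pattern were sought only for members with a mean of at least 1 RPKM, which none of the 10 had. The genes and lists were chosen with earlier results of these data known.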

Additional observations from a re-analysis of the deposited data

Results flagged for a closer look

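In 21 of the 35 sets of a gene and a group with any read, 1 library stood apart from the other 5 by more than Dixon's critical value at the 95% level. Chance flags about 1 in 20 groups of evenly spread values, and sets that are mostly at 0 are not such groups. For Foxd3 these were oculomotor GFP-positive replicate 2 at 0.584 RPKM (5 reads), oculomotor GFP-negative replicate 2 at 4.54 (45 reads) and spinal GFP-negative replicate 4 at 0.607 (6 reads). For Ets1 it was spinal GFP-negative replicate 6 at 3.41 RPKM, which rests on 205 reads, the most behind any of these values.

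For Sox10 it was spinal GFP-positive replicate 1 at 0.132 RPKM, and for Tfap2a spinal GFP-negative replicate 1 at 0.422. For Tfap2b these were oculomotor GFP-positive replicate 1 at 0.204 RPKM, spinal GFP-positive replicate 2 at 0.0678 and spinal GFP-negative replicate 2 at 0.373. For Pax3 these were oculomotor GFP-negative replicate 3 at 0.282 RPKM, spinal GFP-positive replicate 1 at 0.0577 and spinal GFP-negative replicate 2 at 0.286. For Pax7 these were oculomotor GFP-negative replicate 5 at 0.248 RPKM and spinal GFP-positive replicate 4 at 0.218. Each of these 10 values stands for 1 to 7 reads.

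For Msx1 these were oculomotor GFP-positive replicate 5 at 0.404 RPKM, oculomotor GFP-negative replicate 3 at 1.80 and spinal GFP-negative replicate 3 at 0.429. For Msx2 it was oculomotor GFP-positive replicate 5 at 0.430 RPKM, the same library as for Msx1. For Zic1 these were oculomotor GFP-positive replicate 1 at 0.416 RPKM, spinal GFP-positive replicate 1 at 0.0627 and spinal GFP-negative replicate 2 at 0.415. The Msx1 value of 0.429 RPKM and the Zic1 value of 0.0627 RPKM each stand for 1 read.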

How the results depend on the processing

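The fits as designed, with no block, called none of the 10 genes in any comparison, and this held in all 12 or 24 fits per comparison that left out 1 library (lowest and highest count 0). With the replicate block 1 gene was called between the oculomotor fractions (Foxd3), 1 between the spinal fractions (Ets1) and 1 for the difference between the cultures (Foxd3). In the comparisons of the cultures within a fraction 0 were called. There same-numbered libraries correlated at -0.192 to 0.733 (GFP-positive) and -0.0416 to 0.642 (GFP-negative), over 0.1 in 4 of 6 pairs of each. The blocked fits without 1 replicate number, chosen after seeing the data, called 0 to 1 gene in the fraction comparisons and in the difference between the cultures. Without spinal replicates 2 and 4 the blocked fits called 2 genes between the oculomotor fractions, 1 between the spinal fractions and 0 for the difference between the cultures. Calls also appeared without the block. Sample quality weights gave 2 genes between the oculomotor fractions. Replicates 5 and 6 alone gave 2 there and 1 between the GFP-negative groups. The cause of these changes was not tested. The Msx1 difference between the GFP-positive groups, -0.40 (log2), was 0.22 in replicates 5 and 6 alone (adjusted p = 0.606, range 0.501 to 0.712 over 23 alternatives). Requiring over 1 RPKM in at least 6 samples left none of the 10 genes to test. Few reads stood behind several of these genes: Sox10, Tfap2a, Tfap2b, Pax3 and Pax7 had 10 to 22 reads over all 24 libraries.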

Other observations

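Other cell type markers also differed between the fractions, and their part in the values of the 10 genes was not tested. Of 7 epithelial genes 4 were lower in oculomotor GFP-positive than GFP-negative cells (Cdh1, Epcam, Krt8 and Krt18). Krt8 and Krt18, keratins of simple epithelia, were lower in spinal GFP-positive cells too, Krt8 at 1.96 ± 3.61 against 43.4 ± 24.9 RPKM (SD, n = 6) and Krt18 at 5.21 ± 4.75 against 58.9 ± 34.7. Of 8 mesenchyme genes Pdgfra, a growth factor receptor that oligodendrocyte precursors also carry, was called between the spinal fractions, at 0.127 ± 0.236 in GFP-positive and 7.42 ± 7.49 RPKM in GFP-negative libraries, and it was lower in oculomotor than spinal GFP-negative cells.

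Of 9 neural progenitor genes Hes1 and Sox2 were lower in oculomotor GFP-positive than GFP-negative cells, Sox2 at 12.9 ± 13.5 against 79.2 ± 30.5 RPKM. Of 8 ventral progenitor genes Nkx6-1 was higher and Foxa2, a floor plate factor, lower in that comparison, and Nkx6-2 was higher in oculomotor than spinal GFP-positive cells. Of 7 oligodendrocyte genes Mbp, which encodes myelin basic protein, was higher in oculomotor GFP-positive cells, at 3.69 ± 1.39 against 0.811 ± 0.308 RPKM. None of 7 paraxial mesoderm and muscle genes was called in any of the 5 comparisons by limma, with 1 to 3 at an unadjusted p under 0.05 in each, and the most abundant of them were Tcf15 at a mean of 8.62 RPKM and Meox1 at 0.770 over the 24 libraries.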
